A study of Mus musculus with 9 samples.

Results

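The 10 genes described here carry the transforming growth factor beta (TGF-beta) signal: the ligand genes Tgfb1, Tgfb2 and Tgfb3, the receptor genes Tgfbr1, Tgfbr2 and Tgfbr3, and Smad2, Smad3, Smad4 and Smad7, which act inside the cell. They were taken by gene symbol from the transcript names of all libraries, and all 10 were found among 52459 gene symbols, with 46 of 131100 transcripts. RNA from NMuMG cells, an untransformed line of mouse mammary gland epithelial cells, was sequenced in 9 libraries, 3 per group. Mock cells carried the empty expression vector, EPR cells carried the same vector with the long noncoding RNA EPR (gene BC030870), and EPRSTOPE cells carried EPR with a point mutation that stops the small peptide it encodes. In all 3 groups a CMV promoter drove the vector, the cells were drug-selected pools of stable transfectants rather than clones, and no TGF-beta was added. The 3 libraries of a group are called biological triplicates, and the study mentions independent pools of EPRSTOPE cells, but no source used here ties the libraries of a group to separate pools, so that p-values may measure only the spread between cultures of a pool. The comparison with mock asks what the introduced RNA changes, and the comparison of EPR with EPRSTOPE asks what changes with the peptide. Each group was transfected and selected separately, so differences between pools cannot be told apart from those between constructs.

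TGF-beta ligands are secreted in a latent form and, once freed, are bound by the type II receptor encoded by Tgfbr2, which then phosphorylates the type I receptor encoded by Tgfbr1. The type I receptor phosphorylates Smad2 and Smad3, which join Smad4 and enter the nucleus to regulate genes, while Smad7 blocks the activated type I receptor. In mammary epithelial cells TGF-beta is known both for halting the cell cycle and for driving the loss of epithelial character.

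Each library held 5972457 to 11876435 estimated counts, and 3 counts stood for 0.253 to 0.502 CPM (counts scaled to a common library size). Spearman correlations over genes were 0.978 to 0.989 within groups and 0.897 to 0.958 between groups, so no library stood apart. The introduced RNA was at 0.0546 ± 0.0945 CPM in mock, 24.8 ± 1.91 CPM in EPR and 4.22 ± 0.523 CPM in EPRSTOPE cells (SD, n = 3). A lower level of the RNA, the loss of the peptide and the separate selection of the pools cannot be told apart in EPRSTOPE cells. The keratin genes Krt8 and Krt18 were abundant in every group. The adhesion gene Cdh1, a defining epithelial marker, was at 0.843 ± 0.464 CPM in mock against 556 ± 13.7 CPM in EPR and 403 ± 22.8 CPM in EPRSTOPE. Not all such markers rose in both lines. Epcam was at 0 in all mock libraries, 3.63 ± 1.07 CPM in EPR and 0.11 ± 0.107 CPM in EPRSTOPE. Krt7 was at 1.87 ± 0.432, 9.11 ± 0.569 and 1.44 ± 0.401 CPM in the same order. Of 12 epithelial markers, 5, 7 and 6 exceeded 1 CPM in mock, EPR and EPRSTOPE, with summed levels of 3703 to 4171, 9525 to 10630 and 10700 to 11040 CPM. The 10 mesenchymal or fibroblast markers summed to 2921 to 3129, 1823 to 2019 and 3232 to 3428 CPM. Most of this was Vim, at 2634 ± 105, 1768 ± 110 and 3138 ± 113 CPM in mock, EPR and EPRSTOPE. The next most abundant, Cdh2, was lower in both lines than in mock, at 330.5 ± 3.62, 132 ± 7.17 and 158 ± 8.04 CPM. The 4 leukocyte, 2 adipocyte and 3 basal markers summed to at most 4.55, 1.03 and 3.22 CPM in any library. The 4 endothelial markers summed to 11.2 to 17.2 CPM, nearly all of it Pecam1. These marker levels moved with the groups that are compared, and their part in the results below was not tested.

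Differences are given as log2 fold changes between groups, with 95% confidence intervals from the quasi-likelihood test of edgeR fitted to 15370 genes. A gene counted as called where the log2 fold change went beyond 0.5 in either direction with an adjusted p below 0.01. Levels are CPM after TMM normalization unless TPM (a transcript abundance that is also corrected for transcript length) is named, and fold changes compare one gene between groups. For a single gene, the exact two-sided permutation test of 3 libraries against 3 cannot go below p = 0.1, and it gave 0.1 for every tested gene whose groups did not overlap.

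In EPR cells 6 of the 9 tested members were called against mock, all 3 ligand genes as lower and Tgfbr1, Tgfbr2 and Smad3 as higher, where 28.1% of all tested genes were called (15.2% higher and 12.9% lower). In EPRSTOPE cells 3 of 9 were called, Tgfb3 as lower and Tgfbr1 and Smad3 as higher, a share near the background of 28% (15.6% higher and 12.4% lower). Between EPR and EPRSTOPE 3 of 9 were called, Tgfb1 and Tgfb2 as lower in EPR and Tgfb3 as higher, against 13.2% of all tested genes (6.86% higher and 6.35% lower). The median log2 fold change of the 9 was -0.29, -0.02 and -0.01 in these comparisons, beside -0.01, -0.04 and 0.01 for all tested genes. The remaining member, Tgfbr3, did not reach the 1 CPM in 3 libraries that the test required.

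**Figure D1:**
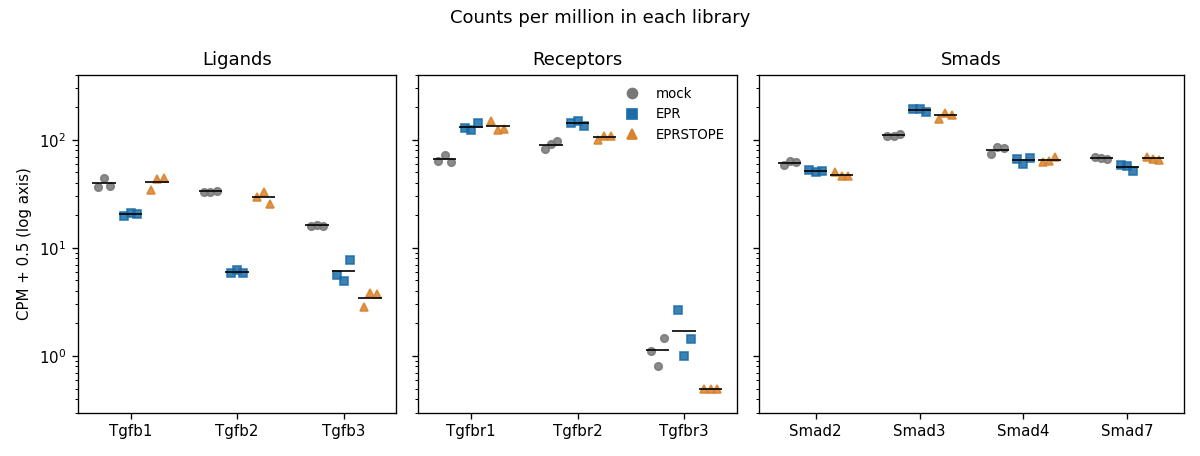
CPM plus 0.5, on a log axis, of the 10 genes in each of the 9 libraries. Grey circles are mock, blue squares EPR and orange triangles EPRSTOPE libraries, and black lines are group means. Tgfb2 stood at 32.5 to 33.2 CPM in mock and 5.41 to 5.81 CPM in EPR libraries, and Tgfbr3 was at 0 in all EPRSTOPE libraries.

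The ligand Tgfb2 showed the largest change among the members. It was at 32.8, 32.5 and 33.2 CPM in the mock libraries, at 5.41, 5.81 and 5.42 CPM with EPR, and at 29.0, 32.6 and 25.1 CPM with EPRSTOPE. In CPM the EPR libraries lay far below all 6 others, while mock and EPRSTOPE overlapped. With EPR the level was 16.9% of that in mock (log2 fold change -2.57, interval -2.83 to -2.31, adjusted p = 6.7e-09) and 19.2% of that with EPRSTOPE (-2.38, -2.65 to -2.12, adjusted p = 5.9e-08). The difference between EPRSTOPE and mock was -0.19 (-0.41 to 0.04, adjusted p = 0.17). Over 17 alternatives it ranged from -0.77 to -0.09 and was never called. In TPM over all transcripts, EPRSTOPE (6.87 to 10.6) lay below mock (11.3 to 20.3) without overlap. Over protein-coding transcripts of at least 1000 bases these groups overlapped, at 3.39 to 6.93 and 4.56 to 6.34 TPM. In cultured cells, fewer cells expressing a gene and less of its RNA in each cell cannot be told apart here.

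Tgfb1, which encodes the most widely expressed of the ligands, was at 36.5, 43.8 and 37.2 CPM in mock, at 19.3, 20.7 and 20.1 CPM with EPR, and at 33.7, 43.1 and 43.5 CPM with EPRSTOPE. Again the EPR libraries were the lowest, without overlap, and mock and EPRSTOPE shared their range. The level with EPR was 51.1% of that in mock (-0.97, -1.22 to -0.72, adjusted p = 2.1e-05) and 49.7% of that with EPRSTOPE (-1.01, -1.26 to -0.76, adjusted p = 4.1e-05). EPRSTOPE differed from mock by 0.04 (-0.20 to 0.28, adjusted p = 0.8).

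Tgfb3, the third ligand gene, had another order of the groups. It was at 15.4, 15.9 and 15.6 CPM in mock, at 5.15, 4.42 and 7.20 CPM with EPR, and at 2.37, 3.31 and 3.22 CPM with EPRSTOPE. Here both lines lay below mock, and EPRSTOPE held the lowest values of the 3 groups. The log2 fold change against mock was -1.47 with EPR (-1.90 to -1.05, adjusted p = 4.9e-05) and -2.37 with EPRSTOPE (-2.84 to -1.91, adjusted p = 1.9e-06). EPR exceeded EPRSTOPE by 0.90 (0.41 to 1.39, adjusted p = 0.0094), and this call ended in 11 of 17 alternative analyses, among them the omission of any library but EPR 207, with values of 0.69 to 1.03 in all 17 and adjusted p-values of 0.015 to 0.04 where it ended.

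Summed over the 3 ligand genes, TPM was 47.4 ± 4.51 in mock, 15.8 ± 0.776 with EPR and 34.3 ± 7.54 with EPRSTOPE (SD, n = 3). The EPR libraries, at 14.9 to 16.3 TPM, did not reach the lowest of the others, at 26.2 TPM. Over protein-coding transcripts of at least 1000 bases alone the sums were 21.1 ± 4.36, 8.49 ± 0.652 and 19.4 ± 4.55 TPM, with EPR again below all others, but mock (18.5 to 26.1 TPM) and EPRSTOPE (16.4 to 24.7 TPM) overlapped there, which they did not over all transcripts. Over all transcripts in mock libraries Tgfb1 supplied most of the sum, at 28.2 ± 1.62 TPM, followed by Tgfb2 at 15.4 ± 4.55 TPM and Tgfb3 at 3.79 ± 0.454 TPM.

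Of the receptor genes, Tgfbr1 rose in both lines and Tgfbr2 with EPR. Tgfbr1 was at 62.9, 72.7 and 62.4 CPM in mock, at 127, 124 and 142 CPM with EPR, and at 150.4, 122 and 126 CPM with EPRSTOPE. All 6 libraries of both lines exceeded all mock libraries, and EPR and EPRSTOPE overlapped. The log2 fold change against mock was 0.99 with EPR (0.78 to 1.20, adjusted p = 3.5e-06) and 1.005 with EPRSTOPE (0.80 to 1.21, adjusted p = 3e-06). The difference between the 2 lines was -0.02, with an interval of -0.22 to 0.19.

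Tgfbr2 was at 81.2, 91.2 and 96.1 CPM in mock, at 142, 149 and 135 CPM with EPR, and at 99.4, 107 and 109 CPM with EPRSTOPE. The 3 groups did not overlap, with EPRSTOPE between mock and EPR. EPR exceeded mock by 0.66 (0.50 to 0.82, adjusted p = 1.1e-05). The difference of EPRSTOPE from mock, 0.23 (0.07 to 0.39, adjusted p = 0.02), did not pass the test. EPR exceeded EPRSTOPE by 0.43 (0.27 to 0.59, adjusted p = 0.00081), short of the fold change that a call required.

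Tgfbr3 encodes betaglycan, a coreceptor that presents ligand, Tgfb2 above all, to the signalling receptors. It was at 0.621, 0.317 and 0.977 CPM in mock and at 2.18, 0.505 and 0.934 CPM with EPR, which overlapped, and at 0 in the 3 EPRSTOPE libraries, where 3 counts stood for 0.307 to 0.491 CPM. At this depth the mock libraries held 4, 3 and 12 counts, so that a difference from EPRSTOPE was at the limit of what could be detected.

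Of the Smad genes, Smad3 rose. It was at 108, 109 and 112 CPM in mock, at 192, 194 and 181 CPM with EPR, and at 157, 177 and 171 CPM with EPRSTOPE. Every library of the 2 lines exceeded every mock library, and EPR lay above EPRSTOPE without overlap. The log2 fold change against mock was 0.78 with EPR (0.65 to 0.92, adjusted p = 6e-07) and 0.62 with EPRSTOPE (0.48 to 0.75, adjusted p = 4.7e-06). The calls ended on counts scaled from TPM, with adjusted p-values of 0.013 for EPR and 0.056 for EPRSTOPE, where the log2 fold changes were 0.94 and 0.68, and the EPRSTOPE call also ended at 0.49 when library totals were the only scaling. EPR differed from EPRSTOPE by 0.17 (0.04 to 0.30, adjusted p = 0.056), which did not pass.

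The other receptor-activated Smad, Smad2, was at 58.1, 62.7 and 62.5 CPM in mock, at 52.0, 50.1 and 51.0 CPM with EPR, and at 49.5, 46.0 and 45.7 CPM with EPRSTOPE. Its differences from mock, -0.26 with EPR (-0.40 to -0.12, adjusted p = 0.0054) and -0.38 with EPRSTOPE (-0.52 to -0.24, adjusted p = 0.00045), were under the required fold change, although no library of either line reached the mock range. The EPRSTOPE difference passed the call at -0.50 with library totals alone and at -0.74 on counts scaled from TPM.

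Smad4, the partner shared by all receptor-activated Smads, was at 73.0, 84.6 and 84.5 CPM in mock, at 65.6, 59.9 and 67.8 CPM with EPR, and at 61.8, 62.8 and 69.6 CPM with EPRSTOPE. Both lines lay below mock and overlapped each other. The log2 fold changes were -0.33 (-0.50 to -0.15, adjusted p = 0.0045) and -0.32 (-0.49 to -0.14, adjusted p = 0.0055), again under the fold change that a call required.

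Smad7, the inhibitory Smad and itself a gene that TGF-beta induces, was at 68.5, 67.6 and 66.7 CPM in mock, at 58.1, 57.0 and 51.0 CPM with EPR, and at 68.8, 66.6 and 65.2 CPM with EPRSTOPE. In CPM, EPR libraries were the lowest, while mock and EPRSTOPE overlapped. EPR differed by -0.29 from mock (-0.43 to -0.15, adjusted p = 0.0027) and by -0.27 from EPRSTOPE (-0.41 to -0.13, adjusted p = 0.0074), below the fold change of a call. EPRSTOPE differed from mock by -0.02 (-0.16 to 0.12). In TPM over all transcripts, EPRSTOPE (26.4 to 38.8) lay below mock (43.0 to 44.1) and overlapped EPR (25.6 to 27.4). Over protein-coding transcripts of at least 1000 bases, the 3 groups overlapped.

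**Figure D2:**
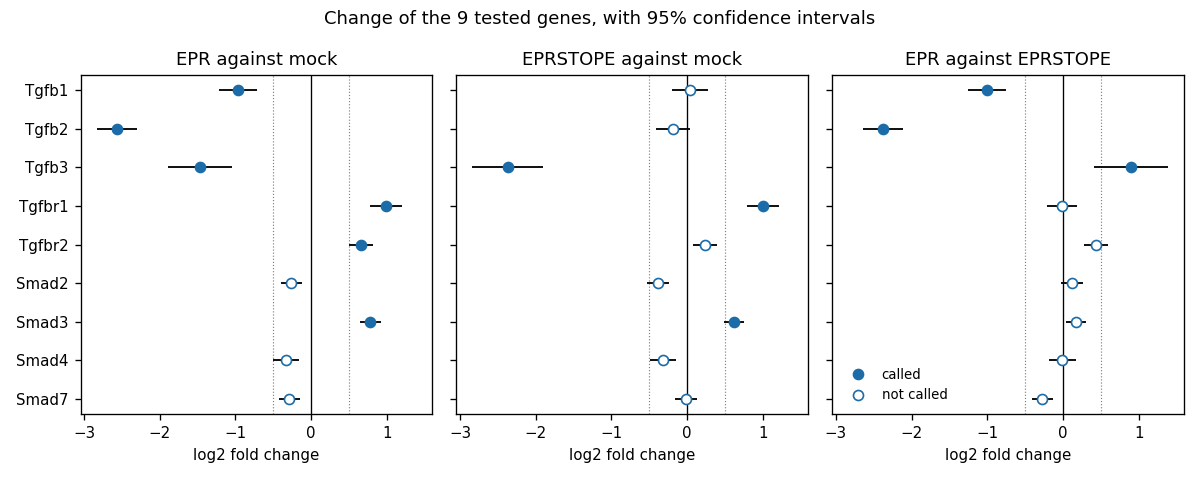
Log2 fold changes of the 9 tested genes in the 3 comparisons, with horizontal lines for 95% confidence intervals and dotted lines at -0.5 and 0.5. Filled points were called and open points were not. The 3 ligand genes lay left of 0 for EPR against mock, at -0.97, -2.57 and -1.47, and of these Tgfb3 alone was called for EPRSTOPE against mock, at -2.37.

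Ratios of 2 members within a library do not depend on how libraries are scaled. The ratio of Smad3 to Smad2 counts was 1.8 ± 0.0628 in mock, 3.7 ± 0.159 with EPR and 3.58 ± 0.364 with EPRSTOPE (SD, n = 3), and the highest mock library, at 1.86, was below the lowest of both lines, at 3.16. The ratio of the inhibitor Smad7 to Smad3 was 0.617 ± 0.0184 in mock, 0.293 ± 0.0103 with EPR and 0.399 ± 0.0347 with EPRSTOPE, with no overlap between the groups. The ratio of type I to type II receptor counts, Tgfbr1 to Tgfbr2, was 0.74 ± 0.0794, 0.926 ± 0.113 and 1.27 ± 0.212 in the same order, also without overlap, at up to 0.797 in mock, 0.831 to 1.05 with EPR and 1.13 or more with EPRSTOPE. Tgfb2 to Tgfb1 was 0.844 ± 0.088 in mock and 0.73 ± 0.142 with EPRSTOPE, which overlapped, and 0.278 ± 0.00705 with EPR. These ratios compare a pair of genes between groups and are not ratios of molecules, since the genes differ in length.

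**Figure D3:**
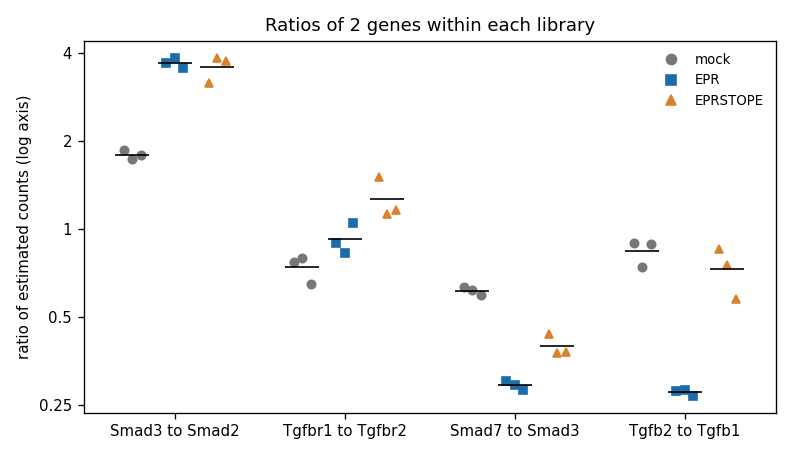
Ratios of estimated counts between 2 genes in each library, on a log axis, with mock as grey circles, EPR as blue squares, EPRSTOPE as orange triangles and group means as black lines. Smad3 to Smad2 lay at 1.74 to 1.86 in mock, 3.55 to 3.86 with EPR and 3.16 to 3.84 with EPRSTOPE.

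To compare levels between genes, TPM was summed over protein-coding transcripts of at least 1000 bases, since short or noncoding transcript models took up a variable share of the total (for Smad2 in mock, the long coding transcripts held 35.1 to 50.6%). In mock libraries the order was Smad2 (20.98 ± 3.92 TPM), Smad4 (18.8 ± 2.70), Tgfbr2 (15.4 ± 2.52), Smad3 (15.3 ± 1.92), Tgfbr1 (14.4 ± 1.99), Tgfb1 (12.0 ± 2.996) and Smad7 (11.4 ± 2.54), and each of these overlapped the next. Tgfb2 (5.28 ± 0.941), Tgfb3 (3.79 ± 0.454) and Tgfbr3 (0.0584 ± 0.0589) followed, each separate from its neighbours.
With EPR the first 3 places were held by Smad3 (29.0 ± 2.66 TPM), Tgfbr1 (28.4 ± 1.81) and Tgfbr2 (26.3 ± 4.21), which overlapped one another and lay above all libraries of Smad2 (18.9 ± 0.967), while the 3 ligands took places 7 to 9 with Tgfb1 at 6.08 ± 0.595 TPM, Tgfb3 at 1.41 ± 0.278 TPM and Tgfb2 at 1.003 ± 0.101 TPM. With EPRSTOPE, Tgfbr1 (29.1 ± 5.52 TPM) and Smad3 (26.6 ± 5.23) came first and overlapped, and Tgfb1 (13.2 ± 3.17) was in place 6.
Over all transcripts the mock order was headed by Smad2, Smad4 and Smad7, at 48.6 ± 2.40, 45.6 ± 7.98 and 43.6 ± 0.567 TPM, so Smad7 depended most on the choice of transcripts.

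Among their coding isoforms, Tgfb2, Tgfbr1 and Tgfbr2 each have a pair whose coding sequences differ by a single stretch of codons. The stretch is shown here because it is how the encoded proteins of the pair differ. The transcript models also differ outside the coding sequence, with 5116 and 3485 bases in all for Tgfb2-201 and Tgfb2-206, 5756 and 2861 for Tgfbr1-201 and Tgfbr1-202, and 3476 and 8092 for Tgfbr2-201 and Tgfbr2-202, and reads there also separate them. The stretch is in capitals, with the 30 coding bases on either side in lower case, from the Gencode M21 transcripts (GRCm38). In Tgfb2-206 an extra exon of 84 bases (chr1:186690721-186690804, minus strand) adds 28 codons to the prodomain that keeps the ligand latent. In Tgfbr1-201 an upstream splice site adds 12 bases (chr4:47393247-47393258, plus strand), or 4 codons. In Tgfbr2-202 an extra exon of 75 bases (chr9:116158271-116158345, minus strand) adds 25 codons to the extracellular part of the receptor.
Tgfb2-206: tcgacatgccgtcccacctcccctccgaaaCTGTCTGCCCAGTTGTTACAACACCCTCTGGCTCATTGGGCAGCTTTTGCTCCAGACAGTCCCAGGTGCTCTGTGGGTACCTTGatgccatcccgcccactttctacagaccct
Tgfbr1-201: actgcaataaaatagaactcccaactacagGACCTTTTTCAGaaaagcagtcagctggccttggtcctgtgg
Tgfbr2-202: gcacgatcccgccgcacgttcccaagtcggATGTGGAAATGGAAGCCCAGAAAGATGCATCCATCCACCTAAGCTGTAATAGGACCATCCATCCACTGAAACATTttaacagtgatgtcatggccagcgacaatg

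Among transcripts, 32 of the members' 46 could be tested, and 2 were called with EPR and 2 with EPRSTOPE, both against mock, and 1 between the lines, beside 4.07%, 4.64% and 0.854% of all tested transcripts. Tgfb2-201, without the extra exon, was at 1.85, 3.02 and 3.10 TPM in mock, at 0.499, 0.499 and 0.344 TPM with EPR and at 2.68, 3.75 and 2.56 TPM with EPRSTOPE. It was called lower with EPR against mock (-2.62, adjusted p = 0.00073) and against EPRSTOPE (-2.69, adjusted p = 0.0021), though the latter call ended on leaving out EPR 206, 207 or 208 or EPRSTOPE 210, after which 0 transcripts were called. Tgfb2-206, with the exon, was at 3.08, 3.32 and 1.47 TPM in mock and at 0.392, 0.587 and 0.686 TPM with EPR, and its difference of -2.21 had an adjusted p of 0.038. With EPRSTOPE it was at 3.29, 3.18 and 0.827 TPM. For both isoforms, the highest EPR library lay below the lowest mock library.

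The longer receptor form Tgfbr2-202 took 23.9%, 24.0% and 25.6% of Tgfbr2 TPM in mock, EPR and EPRSTOPE, and 20.3 to 32.2% over single libraries, with the 3 groups overlapping. Tgfbr2-201 was at 11.8 ± 2.17, 20.1 ± 4.32 and 14.5 ± 3.34 TPM (SD, n = 3) and Tgfbr2-202 at 3.68 ± 0.527, 6.19 ± 0.283 and 4.93 ± 0.972 TPM. Neither was called for EPR against mock (0.75 with adjusted p = 0.032, and 0.68 with adjusted p = 0.02).
Tgfbr1-201, with the 4 extra codons, had the highest mean of the Tgfbr1 transcripts in each group, at 6.50 ± 1.87, 14.1 ± 1.84 and 15.0 ± 3.60 TPM, and Tgfbr1-202 was at 2.16 ± 0.701, 4.21 ± 1.30 and 3.93 ± 2.22 TPM. Of the other coding transcripts, Tgfbr1-203 was at 5.51 ± 0.717, 6.56 ± 2.99 and 8.03 ± 2.96 TPM. Tgfbr1-205 was at 0.285 ± 0.249, 3.49 ± 1.53 and 2.12 ± 0.841 TPM, and neither was called against mock. The log2 fold changes of Tgfbr1-201 from mock were 1.08 with EPR (adjusted p = 0.012) and 1.11 with EPRSTOPE (adjusted p = 0.01), just short of a call.
Smad3-201, the full-length coding transcript, was at 15.3 ± 1.92, 29.0 ± 2.66 and 26.6 ± 5.23 TPM and was called in both comparisons with mock (0.87, adjusted p = 0.00032, and 0.70, adjusted p = 0.00088). Tgfb3 had a single transcript, called for EPRSTOPE against mock at -2.36 (adjusted p = 0.0014). The spread between libraries was far wider for transcripts than for genes, with an edgeR coefficient of variation of 0.709 against 0.132. How much of this came from the assignment of reads between isoforms was not tested. Smad3-205, for instance, was at 0, 19.6 and 0 TPM with EPRSTOPE, where the gene was at 157, 177 and 171 CPM.

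**Figure D4:**
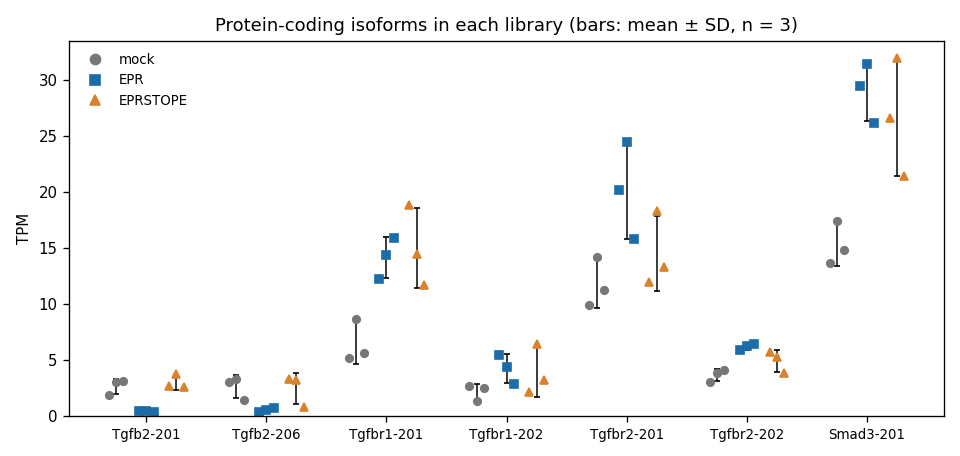
TPM of 7 protein-coding isoforms of Tgfb2, Tgfbr1, Tgfbr2 and Smad3 in each library, with mock as grey circles, EPR as blue squares and EPRSTOPE as orange triangles, and bars for mean ± SD of 3 libraries. Tgfb2-201 and Tgfb2-206 lay at 0.344 to 0.686 TPM in the EPR libraries, and Tgfbr1-201 and Smad3-201 were higher in both lines than in mock.

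RefSeq promoter entries (GRCm38.p6) were read for 5 members, Tgfb1, Tgfb2, Tgfbr1, Tgfbr2 and Smad3. The 250 bases before the start are printed, 5′ to 3′ on the gene's strand, for the pair of ligand genes that were lower with EPR and not called with EPRSTOPE, and for Tgfbr1 and Smad3, which were called higher in both lines. Capitals mark the motifs searched, on both strands: CAGAC, a core that Smad proteins bind, GGGCGG, a GC box, CAGGTG, an E-box, and TGACGTCA, a cAMP response element. The windows lie at chr7:25686752-25687001 (plus), chr1:186705990-186706239 (minus), chr4:47352972-47353221 (plus) and chr9:63757995-63758244 (minus).
Tgfb1: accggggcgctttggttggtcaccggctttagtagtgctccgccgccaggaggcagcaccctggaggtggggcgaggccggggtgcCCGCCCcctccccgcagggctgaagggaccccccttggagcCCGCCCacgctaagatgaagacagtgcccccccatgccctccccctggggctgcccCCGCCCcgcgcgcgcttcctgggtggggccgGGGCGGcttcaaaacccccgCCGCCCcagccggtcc
Tgfb2: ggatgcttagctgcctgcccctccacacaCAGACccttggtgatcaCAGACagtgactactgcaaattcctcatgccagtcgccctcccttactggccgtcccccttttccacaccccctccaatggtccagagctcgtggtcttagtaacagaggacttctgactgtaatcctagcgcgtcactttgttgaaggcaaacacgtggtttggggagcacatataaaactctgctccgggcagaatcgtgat
Tgfbr1: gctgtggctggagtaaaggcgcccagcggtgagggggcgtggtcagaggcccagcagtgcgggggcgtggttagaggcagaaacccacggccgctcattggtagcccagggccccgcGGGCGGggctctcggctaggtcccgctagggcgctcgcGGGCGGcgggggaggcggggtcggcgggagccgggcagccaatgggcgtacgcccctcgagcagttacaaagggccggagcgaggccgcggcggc
Smad3: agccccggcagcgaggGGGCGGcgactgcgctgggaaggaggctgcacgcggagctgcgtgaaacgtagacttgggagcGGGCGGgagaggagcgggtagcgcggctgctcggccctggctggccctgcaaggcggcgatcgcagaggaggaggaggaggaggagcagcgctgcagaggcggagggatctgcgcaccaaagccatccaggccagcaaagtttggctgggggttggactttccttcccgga

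The Tgfb2 window held 2 matches to CAGAC and none to the other motifs, and 53.6% of its bases were G or C. The Tgfb1 window, 75.2% G or C, held 5 GC boxes and no CAGAC. Tgfbr1 (74.8% G or C) and Smad3 (69.2%) held 2 GC boxes each and no CAGAC, and Tgfbr2 and a second, downstream start of Tgfbr1, whose windows are not printed, held 1 CAGAC each and no GC box. None of these held CAGGTG or TGACGTCA. Of all 32851 promoter windows of this length, 42.2% held CAGAC, 32.7% GGGCGG, 17.2% CAGGTG and 1.55% TGACGTCA, and the median share of G or C was 52.4%. The matches are letters in a window and were not measured as bound sites.

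In the GRCm38 genome Tgfb1 is on chromosome 7 (25687002 to 25705077), Tgfb2 on chromosome 1 (186622792 to 186705989), Tgfb3 on chromosome 12 (86056745 to 86079041), Tgfbr1 on chromosome 4 (47353222 to 47414931) and Tgfbr3 on chromosome 5 (107106570 to 107289629). Tgfbr2 (116084293 to 116175360) and Smad3 (63646767 to 63757994) share chromosome 9. The other Smad genes, Smad2 (76241580 to 76310963), Smad4 (73639009 to 73703780) and Smad7 (75367529 to 75395935), are on chromosome 18.

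For each called member, the genes whose CPM pattern over the 9 libraries was most like it were sought among 9321 genes (9322 for Tgfb3) of at least 10 CPM on average, by the root mean square (RMS) difference of centred log2 CPM. Tgfbr1 was closest to Hspa13, an Hsp70 family member, with an RMS difference of 0.042 (51.4, 103 and 104 CPM in mock, EPR and EPRSTOPE), and next to Vmp1, an autophagy gene, at 0.086. Smad3 was closest to the cadherin gene Cdh6 and to Dab2ip, which encodes a Ras GTPase-activating protein, both at 0.05. Tgfbr2 was nearest to the cell adhesion receptor gene Pvr (0.057) and Nipal3 (0.064). Tgfb1 was closest to Pold1, the catalytic subunit of DNA polymerase delta, at 0.093 (66.8, 33.7 and 64.4 CPM), and to Uhrf1, which maintains DNA methylation, at 0.125. Tgfb2 was closest to the secreted factor gene Angptl2 (0.155) and to the receptor gene Fgfr2 (0.234, at 49.6, 11.0 and 41.3 CPM). Tgfb3 was closest to Cit (0.167) and Fam83d (0.169), which act in cytokinesis and on the mitotic spindle, with Cit at 38.7, 14.0 and 8.38 CPM. The 9 libraries fall into 3 groups, so these likenesses rest mainly on 3 group levels.

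Beyond the members, 70 other genes of the pathway were listed in 4 groups, of which 56 were tested. Skil and Pmepa1 are both Smad modulators and TGF-beta-induced genes, and are counted in each of these lists. For EPR against mock 25 of 56 were called (12 higher, 13 lower), for EPRSTOPE against mock 19 (12 higher, 7 lower) and for EPR against EPRSTOPE 14 (6 higher, 8 lower). The shares called over all tested genes, 28.1%, 28% and 13.2% in the same order, are the background for each list below. The median log2 fold changes of the 56 were -0.14, 0.12 and -0.18.

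Among genes for proteins that store, fold or free latent TGF-beta, calls went in both directions. Of 12 tested, 7 were called with EPR against mock (4 higher, 3 lower), 5 with EPRSTOPE (4 higher, 1 lower) and 6 between the lines (3 higher, 3 lower). Thbs1, thrombospondin, which can activate latent TGF-beta, was at 817 to 872 CPM in mock, 120.5 to 129 CPM with EPR and 382 to 495 CPM with EPRSTOPE, log2 fold changes of -2.76 and -0.92 from mock (adjusted p = 2.3e-10 and 1.7e-06). Itgb3, a subunit of an integrin that binds latent TGF-beta, rose by 2.07 with EPR and by 0.58 with EPRSTOPE, from 28.0 to 31.3 CPM in mock to 118 to 131 CPM and 42.9 to 45.2 CPM. Fbn1, the microfibril protein that anchors latent complexes, was at 0.244 to 2.95 CPM in mock and 1.40 to 2.90 CPM with EPR but at 55.5 to 59.8 CPM with EPRSTOPE (5.59 against mock, adjusted p = 1.9e-07). Ltbp4, a latent TGF-beta binding protein, rose by 1.07 and 1.25, from 6.37 to 8.76 CPM in mock to 14.5 to 18.1 and 14.4 to 22.9 CPM. Ltbp1 fell with EPR (-0.84) and Ltbp3 rose (1.13), and Itgb5 fell with EPR (-0.63) and rose with EPRSTOPE (0.61), these 3 being named after their values were seen. In mean TPM Itgb5 was at 43.6 in mock, 19.0 with EPR and 42.5 with EPRSTOPE, without the rise with EPRSTOPE.

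Among coreceptors and the activin branch, which signals through the same Smad2 and Smad3, 4 of 9 tested genes were called in each of the 3 comparisons. Inhbb, the activin B subunit gene, was at 78.0 to 95.3 CPM in mock, 1.40 to 3.23 CPM with EPR and 0.230 to 0.847 CPM with EPRSTOPE, near the level of 3 counts, with log2 fold changes of -5.16 and -7.50 (adjusted p = 2.6e-09 and 9.9e-10). Fst, which encodes the activin-binding protein follistatin, rose from 1.09 to 1.87 CPM in mock to 22.2 to 28.0 CPM with EPR (4.01) and 4.91 to 8.05 CPM with EPRSTOPE (2.03). Acvr1b, the activin type I receptor, rose by 1.09 and 0.83, from 15.7 to 18.5 CPM. Cd109, a membrane coreceptor known to dampen TGF-beta signalling, rose from 14.4 to 17.8 CPM in mock to 49.4 to 50.9 CPM with EPR (1.67) and 108 to 121 CPM with EPRSTOPE (2.88).

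Smad modulators, the ubiquitin ligases, corepressors and phosphatases that act on Smads, had the fewest calls for their number. Of 16 tested, 2 were called with EPR against mock, 1 with EPRSTOPE against mock and 1 between the lines, all lower. With EPR these were the inhibitory Smad6 (-0.63, adjusted p = 0.0062) and the ubiquitin ligase gene Nedd4l (-0.86, adjusted p = 9.4e-06), with EPRSTOPE the corepressor gene Skil (-0.57, adjusted p = 0.00029), and Pmepa1 was lower in EPR than in EPRSTOPE (-0.62, adjusted p = 0.00073). These 4 were named because the counts were small, after their values were seen. The median log2 fold changes of the list were -0.19, -0.08 and -0.09.

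Of 21 tested genes known to be induced by TGF-beta, 12 were called with EPR against mock (5 higher, 7 lower), 10 with EPRSTOPE (5 higher, 5 lower) and 4 between the lines (1 higher, 3 lower), so the list did not move one way. Cdkn1a, a cyclin-dependent kinase inhibitor that halts the cell cycle, was at 6.37 to 8.02 CPM in mock, 93.2 to 103 CPM with EPR and 75.9 to 84.7 CPM with EPRSTOPE, log2 fold changes of 3.71 and 3.44 (adjusted p = 3.3e-11 and 5.4e-11). Fn1, the matrix protein fibronectin, fell with EPR from 1017 to 1051 CPM to 358 to 398 CPM (-1.46, adjusted p = 1.9e-08) and was at 680.4 to 834 CPM with EPRSTOPE (-0.41, not called). Acta2, smooth muscle actin, fell from 9.32 to 10.7 CPM to 0.884 to 1.31 CPM with EPR (-3.08) and 0.169 to 1.38 CPM with EPRSTOPE (-3.54). Sphk1, sphingosine kinase, rose by 0.92 and 1.41, from 7.77 to 11.0 CPM to 16.8 to 19.6 and 24.3 to 25.7 CPM.

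**Figure D5:**
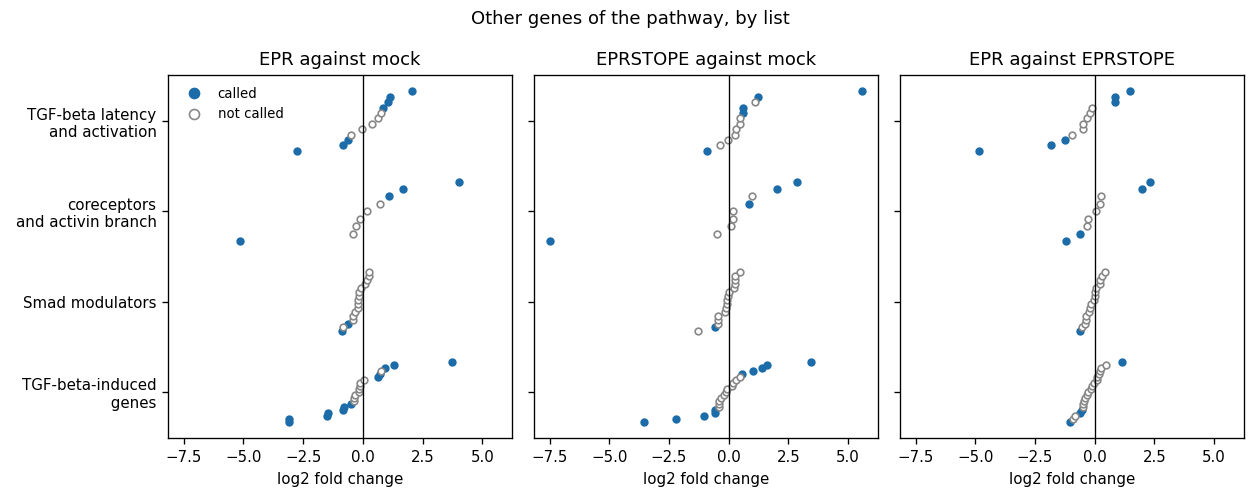
Log2 fold changes of the tested genes of the 4 pathway lists in the 3 comparisons, each point a gene, sorted within its list. Filled points were called and open points were not. Of the Smad modulators 2, 1 and 1 genes were called, and the farthest points were Inhbb at -7.50 and Fbn1 at 5.59 for EPRSTOPE against mock.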

How the data were processed

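Total RNA of 9 NMuMG libraries was sequenced, 3 each of mock, EPR and EPRSTOPE, grouped by sample title. The authors quantified transcripts with kallisto 0.43.1 on Gencode mouse transcripts (GRCm38.p5), demultiplexed with bcl2fastq 2.0, and deposited an estimated count and a TPM value for each transcript. Estimated counts were not normalized by the authors, whereas TPM values were scaled by effective length.

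Estimated counts were summed by gene symbol and rounded. Genes with at least 1 CPM in 3 libraries (15370, and 45412 transcripts) were tested across all genes with edgeR 4.0.16 (quasi-likelihood, TMM, all 9 libraries, Benjamini-Hochberg adjustment) in R 4.3.3. Limma 3.58.1 with voom, which the study's methods name for transcripts, and DESeq2 1.42.0 were alternatives, as were other scalings, filters and thresholds and the omission of each library. Scripts were tested on simulated data. No pair of replicates agreed within counting noise (the lowest chi-square divided by its degrees of freedom was 5.11), so none was treated as a library deposited again, which does not show that they are independent. Positions come from Gencode M21. Python 3.11.15 was used elsewhere.

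The members, the pathway and marker lists and the tests were chosen with earlier results of these data known. Named genes were all members, up to 4 called genes per pathway list with a log2 fold change beyond 1, at least 10 CPM in the highest group and no overlap between groups, and the 2 genes most like each called member. Pathway genes outside this rule are said in the text to be named after their values were seen. Marker genes, named to describe the cells, were also outside it, with their levels known. A further gene counted in the lists is not reported here.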

Additional observations from a re-analysis of the deposited data

Results flagged for a closer look

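The changes from mock differed between the EPR and EPRSTOPE lines, by the direct comparison of EPR with EPRSTOPE in edgeR, for the 3 ligand genes: by -1.01 for Tgfb1 (adjusted p = 4.1e-05), by -2.38 for Tgfb2 (adjusted p = 5.9e-08) and by 0.90 for Tgfb3 (adjusted p = 0.0094), on the log2 scale and without overlap between the 3 libraries of each line. The Tgfb3 call ended in 11 of 17 alternatives, with an adjusted p of up to 0.04. Tgfbr1 differed by -0.02 and Smad3 by 0.17 between the lines, and neither was called. Among the pathway genes named above, the changes differed for Thbs1 (-1.84), Fbn1 (-4.85), Itgb5 (-1.24), Cd109 (-1.21), Fn1 (-1.05) and Pmepa1 (-0.62), lower in EPR, and for Itgb3 (1.48), Ltbp3 (0.88), Inhbb (2.34) and Fst (1.97), higher in EPR. The introduced RNA was at 24.8 CPM with EPR and 4.22 CPM with EPRSTOPE, and the lines were selected as separate pools. The RNA's level, the peptide and differences between the pools therefore cannot be told apart here. Groups of 3 libraries were too small to be searched for outlying samples.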

How the results depend on the processing

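Over all alternatives for single members, 421 of the log2 fold changes kept their direction and their side of the threshold, 14 lost a call, 2 gained one and 22 changed sign, all of the last in differences close to 0 that were never called. With library totals alone, the Tgfb1 difference of EPRSTOPE from mock was -0.081. The EPR against EPRSTOPE difference was 0.002 with limma for Tgfbr1, and for Tgfbr1 and Smad4 it was 0.026 and 0.035 with upper-quartile factors, 0.024 and 0.033 with library totals, 0.003 and 0.011 without a filter, and 0.018 and 0.025 with at least 10 counts in every library. With only the compared groups fitted, it was 0.005 for Smad4, and the Smad7 difference of EPRSTOPE from mock was 0.002. Leaving out each library in turn gave -0.018 to 0.144 for Tgfb1 and -0.035 to 0.004 for Smad7 in EPRSTOPE against mock, and -0.075 to 0.091 for Tgfbr1 and -0.032 to 0.048 for Smad4 between the lines. Library totals moved the median of all genes to -0.09 for EPR and -0.16 for EPRSTOPE against mock, and the share of calls that were higher from 54.1% to 46.5% and from 55.8% to 44.2%.

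With an adjusted p under 0.05 and no minimum fold change, all 9 tested members were called for EPR against mock, where 48.7% of all tested genes passed. For EPRSTOPE against mock 6 members and 39 pathway genes were called, and 5 and 30 between the lines. There 48.4% and 30.2% of all tested genes passed. With a log2 fold change beyond 1, 2 members were called for EPR against mock, and 14, 12 and 9 pathway genes in the 3 comparisons, where 14.9%, 15.4% and 6.51% of all tested genes passed. Limma called 4 transcripts of members for EPR against mock, and leaving out a library left 0 to 1 between the lines. Both thresholds change the counts by their construction, and otherwise the cause was not tested. No paired analysis was possible because the groups share no replicate numbers. Depth limits Tgfbr3, Tgfb3 and single transcripts, which rest on few counts.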
